A study of Zea mays with 24 samples.

Results

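The 3 genes described here belong to lignin synthesis in maize. They are phenylalanine ammonia lyase (PAL, GRMZM2G074604), the cinnamyl alcohol dehydrogenase gene bm1 (GRMZM5G844562) and the caffeic acid O-methyltransferase gene bm3 (AC196475.3_FG004). They were chosen by identifier from 109715 identifiers in the deposited tables, and all 3 were present. No cut on their values was applied, but earlier results of these data were known when they were chosen. A reference table of the maize assembly Zm-B73-REFERENCE-NAM-5.0 held 2 of the 3. It gave GRMZM5G844562 the name BM1 and GRMZM2G074604 the name PAL1. AC196475.3_FG004 had no entry there, so its name bm3 rests on the choice of members.

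Lignin is a phenolic polymer that stiffens the secondary walls of xylem vessels and fibres, which in a grass leaf lie in and around the veins. PAL removes the amino group of phenylalanine and so opens the phenylpropanoid pathway, which also feeds flavonoids and wall-bound phenolic acids. Cinnamyl alcohol dehydrogenase catalyses the last reduction to the monolignols, the alcohols that are polymerised into lignin, and caffeic acid O-methyltransferase adds methyl groups on the way to them. The methyl groups come from S-adenosylmethionine. Maize plants with mutations in bm1 or bm3 have brown midribs and altered lignin.

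Leaf primordia of the inbred line B73 were dissected by laser and their polyadenylated RNA was sequenced, with 8 groups of 3 libraries each. The regions lie at the preligule band, the strip of cells at the boundary of blade and sheath from which the ligule grows. Wild-type P7 primordia gave ligule, blade and sheath pieces of the adaxial L1, the outermost cell layer of the upper leaf face (replicates 1 to 3). The same 3 regions were taken through all cell layers in other wild-type P7 libraries (replicates 3 to 5). P6 primordia, a plastochron younger, gave pieces through all layers between 400 and 900 µm from the base, of plants with the recessive liguleless allele lg1-R and of their wild-type siblings (replicates 1 to 3). Ligule pieces were rectangles 100 µm high, and blade and sheath pieces of similar size lay 50 µm above and below them. Each library pooled 5 to 6 plants, and the labels do not say whether libraries with the same number share plants. The p-values therefore measure the spread between these pools. RNA went through 2 rounds of amplification before library preparation, and the effect of this on the levels was not tested.

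The libraries held 3818649 to 32553958 counts in the adaxial L1, 9970945 to 52731783 in the all-layers P7 pieces and 15020913 to 40957592 in P6. Libraries of the adaxial L1 correlated least with their own group, with mean Pearson coefficients across genes of 0.932 to 0.96, against 0.95 to 0.981 in the all-layers P7 libraries, where sheath replicate 4 was lowest. The labelled layer was visible in the epidermis markers. The 5 epidermis markers (homeobox genes such as ocl1 and ocl4, and gl1, which was at 0 or close to it in both kinds of piece) summed to 1030 to 3170 counts per 1e6 counts of the library (CPM) in the L1 libraries and 415 to 693 CPM in the all-layers libraries. The 5 photosynthetic markers summed to 0.931 to 25.6 CPM in the L1 libraries and 14.8 to 48 CPM in the all-layers libraries. Their members did not share one direction. Ppdk1 was at 0 in all 9 L1 libraries, but it had only 2 counts in all-layers sheath. Pep1 (GRMZM5G899080) averaged 19.7 CPM in L1 blade and 6.6 CPM in L1 sheath, against 5.48 and 1.9 CPM in all layers. In ligule it averaged 1.85 CPM in the L1 and 2.22 CPM in all layers, and me3 averaged 7.19 and 4.69 CPM. Of the 3 vascular and inner markers, the sucrose transporter gene sut1 was at 0 in all 9 L1 libraries, and its mean was 1.28 CPM or less in the all-layers groups. The 3 together summed to 451 to 925 CPM in the L1 libraries and 323 to 440 CPM in the all-layers libraries, nearly all of it rld1 and rld2, which also mark the upper side of the leaf. The gene lg1 itself was not lower in the libraries labelled lg1-R, with 1.59, 1.42 and 2.33 FPKM (fragments scaled to gene length in kilobases and to 1e6 mapped fragments) against 0.465, 1.77 and 0.998 FPKM in wild-type siblings. The labels do not say whether the allele removes the transcript, so lg1 RNA does not check the genotype.

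PAL, the enzyme at the entry of the pathway, was found in every library. In the adaxial L1 it reached 22.4, 22.4 and 39.7 FPKM in ligule, 44.3, 67.7 and 54.6 FPKM in blade, and 109, 137 and 165 FPKM in sheath. The 3 L1 regions did not overlap, with ligule at the bottom and sheath at the top. In all layers it reached 32.7, 132 and 165 FPKM in ligule, 92, 92.3 and 105 FPKM in blade, and 229, 61.7 and 218 FPKM in sheath. There the blade libraries lay close together, while ligule replicate 3 and sheath replicate 4 lay far below the other libraries of their regions. At P6 it reached 86, 71 and 112 FPKM in libraries labelled lg1-R and 39.8, 40.5 and 59.5 FPKM in wild-type siblings, with no overlap.

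The cinnamyl alcohol dehydrogenase gene bm1 was present in every all-layers library and in 3 of the 9 L1 libraries. In the adaxial L1, ligule and sheath had 0 counts in all 6 libraries, and blade had 73, 1 and 27 counts, equal to 1.59, 0.0766 and 1.27 FPKM. In all layers bm1 reached 47.6, 90.3 and 61.4 FPKM in ligule, 49.2, 49.7 and 51.4 FPKM in blade, and 116, 19 and 108 FPKM in sheath. Every all-layers library was above every L1 library, and sheath replicate 4 was again the lowest of its region. At P6 the libraries labelled lg1-R had 19, 16.5 and 36.2 FPKM, and wild-type siblings had 16.3, 14.1 and 14 FPKM. The 2 genotypes did not overlap, but the lowest mutant library was only just above the highest wild-type library.

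The caffeic acid O-methyltransferase gene bm3 followed the same pattern at a far lower level. In the adaxial L1 its only counts were 4 in blade replicate 1, or 0.13 FPKM. In all layers it reached 0.896, 2.81 and 2.7 FPKM in ligule, 1.3, 2.26 and 2.28 FPKM in blade, and 2.6, 0.249 and 3.36 FPKM in sheath. Sheath replicate 4, with 4 counts, came closest to the L1 libraries. At P6 it reached 0.877, 0.422 and 1.93 FPKM in libraries labelled lg1-R and 0.904, 0.733 and 0.622 FPKM in wild-type siblings, and the genotypes overlapped. The reference gives the name comt to another identifier, GRMZM5G814904, whose mean was 0.123 CPM or less in each of the 8 groups. If near-identical copies share reads, the estimated counts of these genes are less certain.

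**Figure D1:**
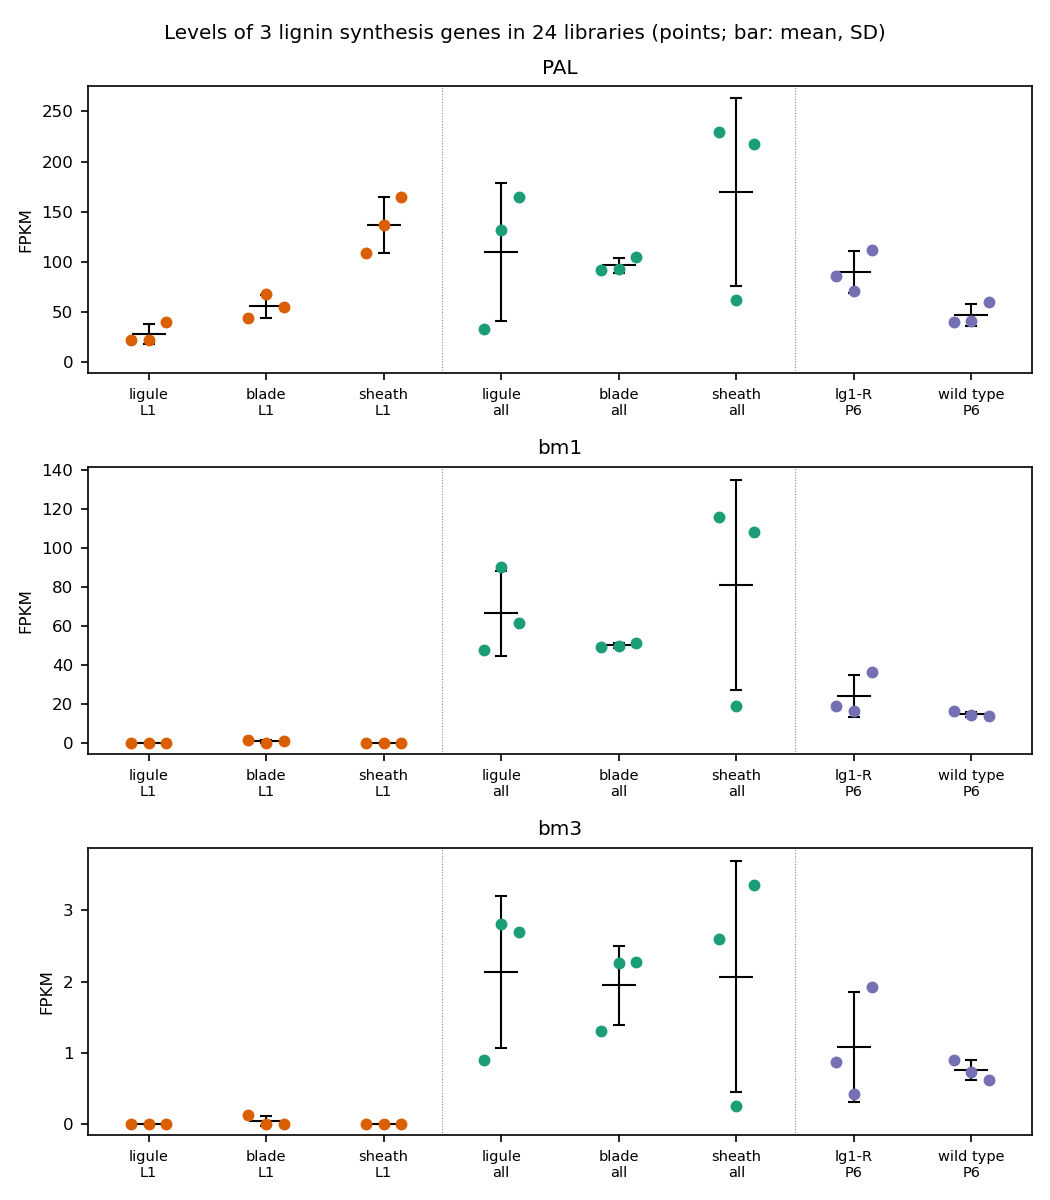
FPKM of PAL, bm1 and bm3 in the 24 libraries, by group (points are libraries, bars the mean and SD over 3). The bm1 and bm3 points lie at or near 0 in the 9 libraries of the adaxial L1 and above it in the all-layers and P6 libraries, while PAL climbs across L1 ligule, blade and sheath.

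Ordered by mean level, the groups ranked differently for each gene. For bm1 the order ran from all-layers sheath (80.7 FPKM), ligule (66.4) and blade (50.1), which overlapped, through lg1-R (23.9), wild type at P6 (14.8) and L1 blade (0.978) to L1 ligule and sheath at 0, and from blade downwards each neighbour was separate up to those last 2. For bm3 the all-layers P7 regions and the P6 genotypes formed a chain of overlapping neighbours between 2.13 and 0.753 FPKM, separate from the L1 groups at 0.0433 FPKM or 0. For PAL, the chain from all-layers sheath (169 FPKM) through L1 sheath (137), all-layers ligule (110) and all-layers blade (96.4) to lg1-R (89.7) overlapped at each step. L1 blade (55.5) and wild type at P6 (46.6) overlapped each other below it, and L1 ligule (28.2) came last, without overlap with those 2 groups, although all-layers ligule replicate 3 (32.7 FPKM) lay within its range.

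Set among all identifiers with a mean FPKM above 0 in a group, PAL was higher than 79% to 96.5% of them in each of the 8 groups. In the all-layers P7 regions bm1 was higher than 89.6% to 92.8% and bm3 higher than 43.1% to 48.9%. In L1 blade bm1 was higher than 34.3% and bm3 higher than 8.38%, and neither was detected in L1 ligule and sheath. Per length, the ratio of bm1 to PAL lay between 0.308 and 1.45 in the 9 all-layers P7 libraries and between 0.00113 and 0.0359 in the 3 L1 blade libraries. Between the P6 genotypes this ratio overlapped, at 0.22 to 0.324 in lg1-R and 0.236 to 0.411 in wild type.

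The comparison of the adaxial L1 with all layers asked which of the 3 RNAs lie in the outer cell layer. The enzymes of the later steps, bm1 and bm3, were nearly absent from it, whereas PAL was found in all 9 L1 libraries. Over the 9 libraries of each kind, bm1 had 101 counts in the L1, against 20864 in all layers, and bm3 had 4 counts, against 448. PAL had 19417 counts in the L1 and 60546 in all layers. Fewer cells of a type and less RNA per cell cannot be told apart in these pieces. Nor can the layer be told apart from the capture, since the L1 and all-layers libraries were separate collections.

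In blade, bm1 averaged 1.64 ± 1.33 CPM in the L1 and 69.9 ± 1.4 CPM in all layers (SD, n = 3 each). The log2 fold change was -5.28 (SE 0.69), a fall that passed the quasi-likelihood test of edgeR (adjusted p = 0.00018, by Benjamini and Hochberg's method over all genes), where 9.38% of 22334 genes passed. In ligule, with 0 counts in the L1 against 84 ± 33 CPM in all layers, bm1 was at least 874-fold lower when the group was set to a floor of 3 counts over its 3 libraries (adjusted p = 5.3e-06). In sheath it was at least 1100-fold lower, at 0 counts against 108 ± 72.6 CPM (adjusted p = 6.5e-06). The shares of genes that passed were 16.5% in ligule and 13.2% in sheath. No alternative computed ended any of these 3 calls for bm1.

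The fall of bm3 passed the same test in all 3 regions, on far fewer counts. In blade it was 4 counts in the L1 against 160 in all layers, a ratio of 19.2 after scaling, all layers over L1 (95% interval 7.37 to 71.5, counting error only, adjusted p = 0.026). Leaving out blade replicate 2 or 3 of the L1, or blade replicate 4 or 5 of all layers, raised the adjusted p to 0.066 to 0.086. In ligule bm3 was at least 19.7-fold lower in the L1 (adjusted p = 0.0059), and in sheath at least 18-fold lower (adjusted p = 0.0071).

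PAL passed the test in ligule and did not pass it in blade or sheath. In ligule it averaged 63.3 ± 24.1 CPM in the L1 and 208 ± 128 CPM in all layers, a log2 fold change of -1.74 (SE 0.47, adjusted p = 0.015), although all-layers replicate 3, at 60.9 CPM, lay within the range of the L1 libraries. That call was lost without ligule replicate 4 or 5 of all layers or ligule replicate 1 or 2 of the L1, with adjusted p = 0.057 to 0.073. In blade PAL averaged 144 ± 36.3 CPM in the L1 and 203 ± 12.9 CPM in all layers, without overlap but not past the threshold (-0.52, SE 0.46, adjusted p = 0.55). In sheath it averaged 323 ± 78.4 CPM in the L1 and 341 ± 190 CPM in all layers (-0.10, SE 0.45, adjusted p = 0.92). The difference between ligule and sheath in this effect, -1.63 on the log2 scale (SE 0.65), did not pass the threshold (adjusted p = 0.28), nor did that between ligule and blade (-1.22, SE 0.65, adjusted p = 0.51). The shares of genes past it were 1.51% and 1.85%.

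The other enzymes of monolignol synthesis come from a list of 10 names that includes PAL, bm1 and bm3. Of the 4 others tested, 3 fell in the L1 of each region and 1 rose, in sheath. In the L1 libraries alone only 3 of the 10 passed the filter on low counts, against 7 here. Genes could thus be tested through their all-layers counts alone, which favours falls. The same filter held for all genes, and these tallies and medians only describe the genes tested. Of all genes tested 5.36% fell in blade, 11.6% in ligule and 8.64% in sheath, and 4.55% rose in sheath. With genes at 0 counts set to their bound, the median log2 fold change of all 7 tested, PAL, bm1 and bm3 included, was -4.61 in blade, -7.79 in ligule and -4.17 in sheath, against -0.08, -0.15 and -0.09 for all genes tested. In the same libraries the summed epidermis markers were higher in the L1 (1030 to 3170 CPM against 415 to 693 CPM in all layers), and the summed photosynthetic markers overlapped (0.931 to 25.6 CPM against 14.8 to 48 CPM in all layers). Their part in the result was not tested.

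4CL (GRMZM2G075333), which activates hydroxycinnamic acids as coenzyme A thioesters, averaged 0.0854 ± 0.148 CPM in the L1 of blade and 28.3 ± 12.7 CPM in all layers (adjusted p = 0.00029). It had 0 counts in the L1 of ligule and of sheath, at least 245-fold and at least 308-fold lower (adjusted p = 0.00013 and 0.00011). CCR (GRMZM2G131205), the cinnamoyl-CoA reductase that acts just before cinnamyl alcohol dehydrogenase, fell by 4.66 on the log2 scale in blade (SE 0.80, adjusted p = 0.00085). It had 1 count in the L1 of ligule and 1 in that of sheath. The all-layers level was 365 times that (95% counting interval 65.4 to 14400) in ligule and 338 times (60.4 to 13400) in sheath, with adjusted p = 2.7e-05 and 4.4e-05.

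CCOAOMT2 (GRMZM2G099363), a caffeoyl-CoA methyltransferase named here after its values were seen, also fell. It averaged 0.819 ± 0.93 CPM in the L1 and 14.8 ± 7 CPM in all layers of blade (adjusted p = 0.0093). In ligule 5 counts in the L1 stood against 4390 in all layers, a ratio of 245, all layers over L1 (95% counting interval 105 to 755, adjusted p = 0.00019). In sheath it averaged 3.97 ± 3.09 CPM in the L1 and 28.9 ± 14 CPM in all layers (-2.91, SE 0.87, adjusted p = 0.03). So this methyltransferase, unlike bm1 and bm3, had 108 counts in the L1 of sheath.

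The exception to the direction was cad1 (GRMZM2G046070), named by the reference as another cinnamyl alcohol dehydrogenase. It averaged 8.38 ± 6.44 CPM in the L1 of sheath and 0.525 ± 0.193 CPM in all layers, a log2 fold change of 3.95 (SE 0.99, adjusted p = 0.011). In ligule it averaged 5.53 ± 3.98 CPM in the L1 and 0.944 ± 0.638 CPM in all layers, and in blade 0.489 ± 0.612 CPM and 0.126 ± 0.0117 CPM, neither past the threshold (adjusted p = 0.065 and 0.26). In sheath the differences of cad1 and bm1 between the layers thus had opposite signs.

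**Figure D2:**
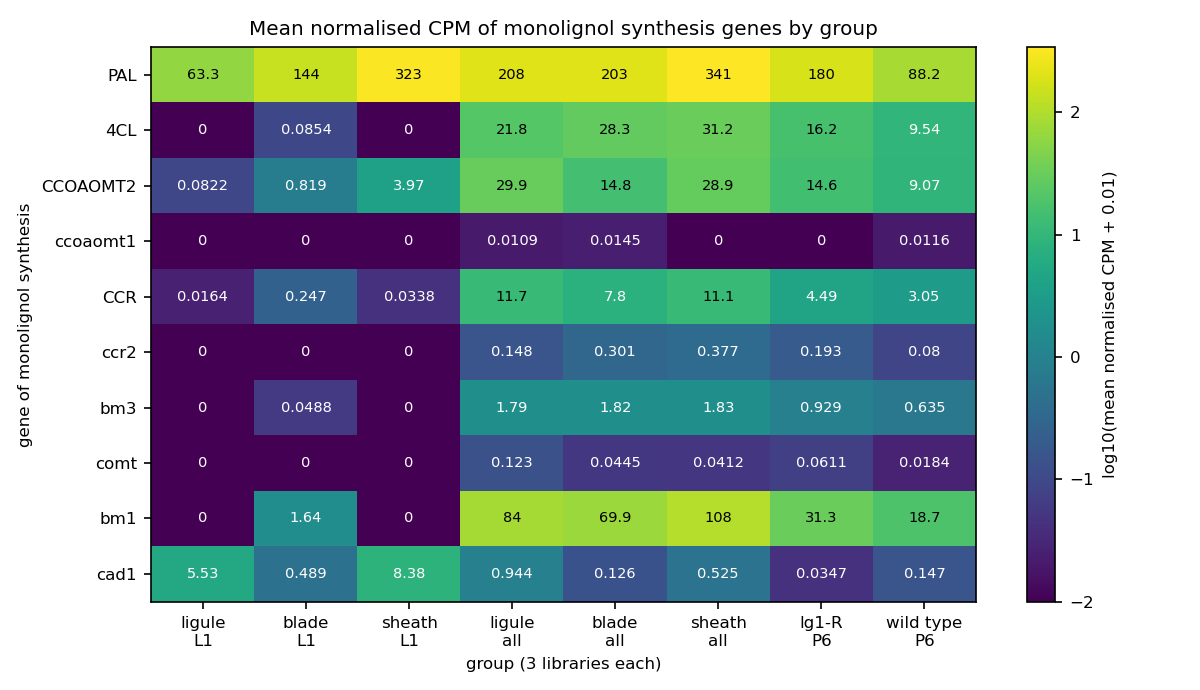
Mean normalised CPM of 10 monolignol synthesis genes (down the page, from PAL to the cinnamyl alcohol dehydrogenases) in the 8 groups (across, 3 libraries each), with colour on a log10 scale after adding 0.01. For 4CL, CCR, bm3 and bm1 each of the 3 L1 groups lies below every all-layers and P6 group (the highest L1 value of bm1 is 1.64 in blade), PAL is bright in all 8 groups, and cad1 is brighter in L1 ligule (5.53) and sheath (8.38) than in any all-layers or P6 group.

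Genes of lignin polymerisation and the secondary wall, 17 in the table, gave few calls among the 10 tested. In the L1 of blade 1 rose and 1 fell, in that of ligule 1 rose and 3 fell, and in that of sheath 1 rose and 2 fell. Of all genes, 4.02% rose and 5.36% fell in blade, 4.85% and 11.6% in ligule, and 4.55% and 8.64% in sheath. With 10 genes, the counts called cannot be told well from these shares. In the L1 libraries alone 4 of the 17 passed the filter on low counts, so here too genes could be tested through their all-layers counts alone. With genes at 0 counts set to their bound, the list's median log2 fold change was -0.92 in blade, -1.86 in ligule and -1.40 in sheath. For all genes tested it was -0.08, -0.15 and -0.09. The genes set to a bound numbered 3, 4 and 5 of the 10. CesA12 (GRMZM2G142898), a cellulose synthase named for the secondary wall, had 0 counts in the L1 of blade and of sheath, at least 118-fold and at least 132-fold lower than in all layers (adjusted p = 1e-04 and 4.2e-05). In the L1 of ligule it had 2 counts, and the all-layers level was 244 times that (95% counting interval 67.5 to 2020, adjusted p = 7e-05). In ligule cesa11 (GRMZM2G037413, at least 17.2-fold lower, adjusted p = 0.039) and myb42 (GRMZM2G419239, at least 9.67-fold lower, adjusted p = 0.037) fell as well, both at 0 counts in the L1. In sheath myb42 was also at 0 counts and at least 6.4-fold lower (adjusted p = 0.049). The cellulose synthase gene cesa10 (GRMZM2G445905) of the same list, far more abundant, was not called between layers in any region. It averaged 121 CPM in the L1 and 123 CPM in all layers of blade, 78.3 and 82.1 CPM in ligule, and 116 and 111 CPM in sheath.

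MYB103 (GRMZM2G111045), a MYB transcription factor, rose in the L1 of blade, with 24.1 ± 9.65 CPM against 6.67 ± 0.781 CPM in all layers (1.84, SE 0.44, adjusted p = 0.011). It rose in sheath too, with 23.7 ± 3.82 CPM in the L1 against 6.33 ± 2.55 CPM in all layers (1.88, SE 0.45, adjusted p = 0.0074). In ligule the gene that rose was GRMZM5G892094, 1 of 2 identifiers named myb31, with 12.2 ± 3.07 CPM in the L1 and 4.09 ± 0.279 CPM in all layers (1.55, SE 0.47, adjusted p = 0.027). In blade it averaged 15.4 CPM in the L1 and 6.99 CPM in all layers, but in sheath 4.44 and 6.84 CPM. The other myb31, GRMZM2G050305, averaged 3.57 CPM in the L1 and 4.83 CPM in all layers of ligule. Its means were 12.5 and 4.57 CPM in blade and 2.89 and 4.4 CPM in sheath. The laccase genes Lac1 (GRMZM2G146152) and lac5 (GRMZM2G367668) were at 0 counts in the L1 of ligule and sheath, and neither passed the threshold in any region. Their all-layers libraries spread widely, at 17.8 ± 30.6 CPM for Lac1 in ligule. A further identifier named LAC1, GRMZM5G842071, had 45 counts in the L1 of ligule and 0 in that of blade and sheath. In ligule it averaged 0.959 ± 1.04 CPM in the L1 and 0.532 ± 0.264 CPM in all layers.

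Within the adaxial L1, PAL was the only member tested between regions, since the filter on low counts removed bm1 and bm3. Its level in L1 ligule, 63.3 ± 24.1 CPM, was below that in L1 sheath, 323 ± 78.4 CPM (log2 fold change -2.32, SE 0.30, adjusted p = 0.00046), in a comparison where 6.17% of 18761 genes passed. This call was kept in every alternative computed. Against L1 blade, at 144 ± 36.3 CPM, the ligule was lower by a log2 fold change of -1.13 (SE 0.29, adjusted p = 0.034), with 6.48% of genes past the threshold. That call was lost without ligule replicate 1 (adjusted p = 0.13), ligule replicate 2 (0.16) or blade replicate 2 (0.1). Blade was below sheath by -1.19 (SE 0.29) without overlap, just short of the threshold (adjusted p = 0.056), where 1.96% of genes passed. It passed in some alternatives, without blade replicate 2 (adjusted p = 0.044) and without ligule replicate 3 (0.038) among them. The floor of 3 counts equalled 0.11 to 0.805 CPM in a single L1 library.

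The summed epidermis markers were also lowest in L1 ligule, but they overlapped between L1 blade and sheath, where PAL did not. The 5 markers summed to 1030 to 1300 CPM in L1 ligule, against 2010 to 3170 CPM in L1 blade and 1620 to 2570 CPM in L1 sheath. Of the 4 tested, 2 fell in L1 ligule against each of the other regions and 0 rose. Among all genes tested 4.23% fell against blade and 4.04% against sheath. The homeobox gene ocl1 (GRMZM2G026643) differed by -1.28 from blade and by -1.33 from sheath (adjusted p = 0.0022 in both), and ocl3 (GRMZM2G116658) by -1.63 and -1.67 (adjusted p = 0.0022 and 0.0023). gl1 was at 0 in all 9 libraries. Between L1 blade and sheath, 0 of the 4 were called. The part of these markers in the PAL result was not tested.

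The S-adenosylmethionine synthetase gene sam2 (GRMZM2G154397), which makes the methyl donor, fell in L1 ligule to 554 ± 84.3 CPM, against 1140 ± 191 CPM in L1 blade (-0.97, SE 0.23, adjusted p = 0.023). Its difference from L1 sheath was -0.68 (SE 0.23, adjusted p = 0.11).

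L1 blade was the L1 region with counts of bm1, nearly all of them in replicates 1 and 3, since replicate 2, at 1 count, lay under the floor of 3 counts. Taken over the 3 libraries, blade was at least 24.7-fold above ligule and at least 23-fold above sheath. The filter on low counts kept bm1 and bm3 out of these tests. Without the filter the adjusted p for bm1 was 0.065 for ligule against blade and 0.1 for blade against sheath. The change of the ligule to blade difference between layers did pass the test for bm1 in the 18 P7 libraries (adjusted p = 0.035). That call was lost when any of 9 of the 18 libraries was left out, with an adjusted p of up to 0.15. The fitted size is not a bound, because L1 ligule had 0 counts. For bm3 the 4 counts of L1 blade were too few for a difference to be detectable at this depth.

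Of the flavonoid genes, which share PAL with lignin, 4 of 9 were tested in the L1, and the 1 called was CHI (GRMZM2G155329, chalcone isomerase). It averaged 0.164 ± 0.285 CPM in L1 ligule, against 10.3 ± 4.93 CPM in L1 blade (-5.41, SE 1.05, adjusted p = 0.0067) and 5.85 ± 2.46 CPM in L1 sheath (-4.63, SE 1.03, adjusted p = 0.016). Among all genes tested, 4.23% were called lower in L1 ligule than in L1 blade and 4.04% lower than in L1 sheath. The other 3 flavonoid genes did not pass the threshold in either comparison and did not share one direction. A1 (GRMZM2G026930) was at -4.40 against blade and -1.58 against sheath, whereas BZ1 (GRMZM2G165390) was at 2.38 and 1.42 and bz2 (GRMZM2G016241) at 0.91 and 0.41.

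**Figure D3:**
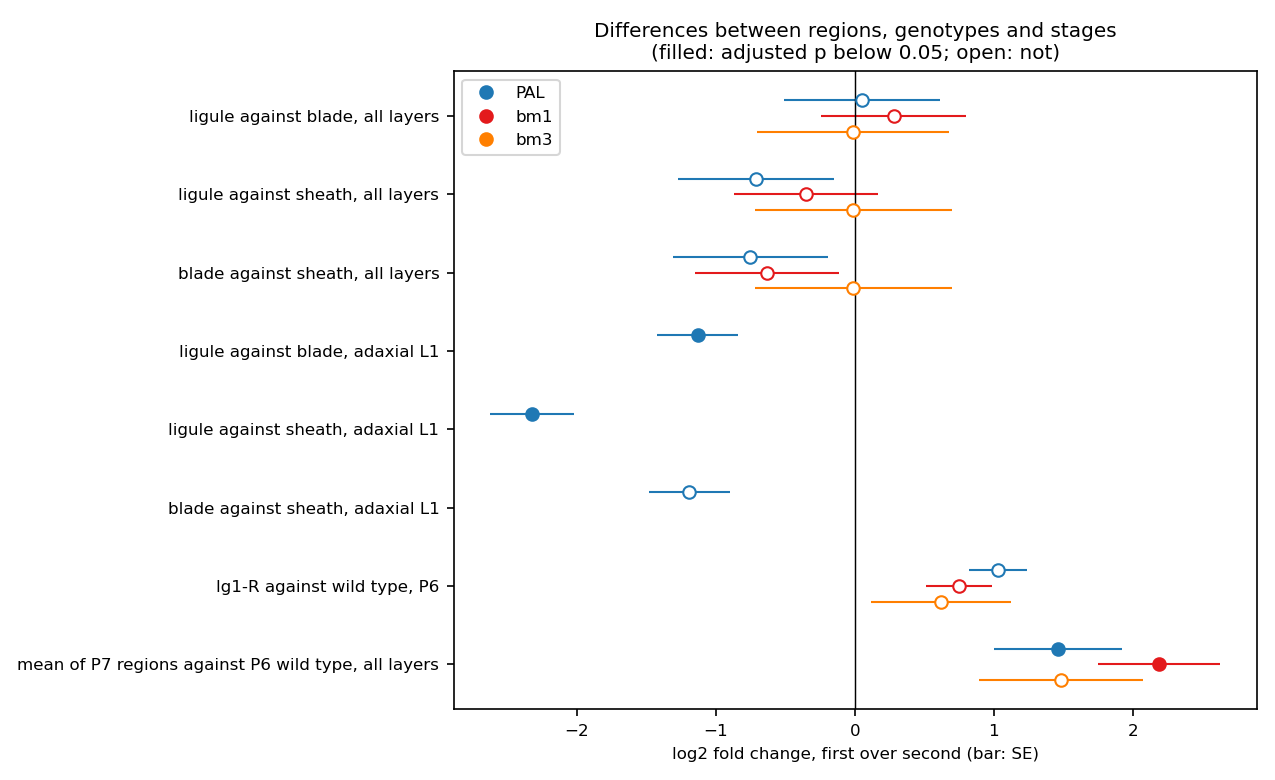
Log2 fold changes with SE of PAL, bm1 and bm3 in 8 comparisons, the first-named group over the second (filled circles passed an adjusted p of 0.05, and no circle is drawn for bm1 and bm3 in the L1 regions, which were not tested). The filled circles are PAL in the L1 at -1.13 and -2.32, and PAL at 1.46 and bm1 at 2.19 between P7 and P6.

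In all layers, no region comparison of the 3 members passed the threshold. For ligule against blade, where 4.75% of 22205 genes passed, the log2 fold changes were 0.05 (SE 0.56) for PAL, 0.28 (SE 0.52) for bm1 and -0.01 (SE 0.69) for bm3, with adjusted p between 0.87 and 1. Same-numbered ligule and blade libraries deviated together, and with the replicate number as a block in these 6 libraries alone, a fit added after seeing the data, 2879 genes passed, against 1054 in the fit of 9. The 3 members still did not pass (-0.23 for PAL, 0.21 for bm1 and -0.13 for bm3, adjusted p = 0.59 to 0.88). For ligule against sheath, where 2.79% passed, PAL was at -0.71 (SE 0.56, adjusted p = 0.71) and bm1 at -0.35 (SE 0.52, adjusted p = 0.87). For blade against sheath, where 1.58% passed, PAL was at -0.75 (SE 0.56, adjusted p = 0.84) and bm1 at -0.63 (SE 0.52, adjusted p = 0.86). The SE was 0.52 to 0.71 on the log2 scale for PAL, bm1 and bm3 in these comparisons, against 0.29 to 0.30 for PAL between the regions of the L1.

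A pair of libraries lay apart in these genes. Relative to the median of the 9 all-layers P7 libraries, sheath replicate 4 was at -0.76 (log2) for PAL, -1.43 for bm1 and -3.19 for bm3. Ligule replicate 3 was at -1.68 for PAL, -1.35 for bm3 and -0.11 for bm1. For each of the 3 genes these were the lowest libraries of the 9. Sheath replicates 3 and 5 held the highest bm1 and PAL values, at 1.06 to 1.17 for bm1 and 1.05 to 1.13 for PAL. The 5 epidermis markers summed to 642 CPM in sheath replicate 4, against 529 and 616 CPM in the other sheath libraries, and the 3 vascular and inner markers to 371 CPM, against 374 and 326 CPM. In ligule replicate 3 the epidermis markers summed to 423 CPM, against 415 and 478 CPM in the other ligule libraries, and the vascular and inner markers to 411 CPM, against 436 and 440 CPM. Of the preligule band markers, lg1 was at 1.76 CPM in ligule replicate 3, against 16.2 and 6.25 CPM in the other ligule libraries. Across all genes the deviations of ligule replicate 3 and sheath replicate 4 from their group means correlated at 0.529. The part of these values in the low levels was not tested.

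Without both of those libraries, an alternative chosen after their values were seen, blade was below sheath for bm1 (-1.09, adjusted p = 0.021) and PAL (-1.15, adjusted p = 0.013). Since they were left out partly for being low in these genes, this describes the remaining 7 libraries and supports no difference between the regions.

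**Figure D4:**
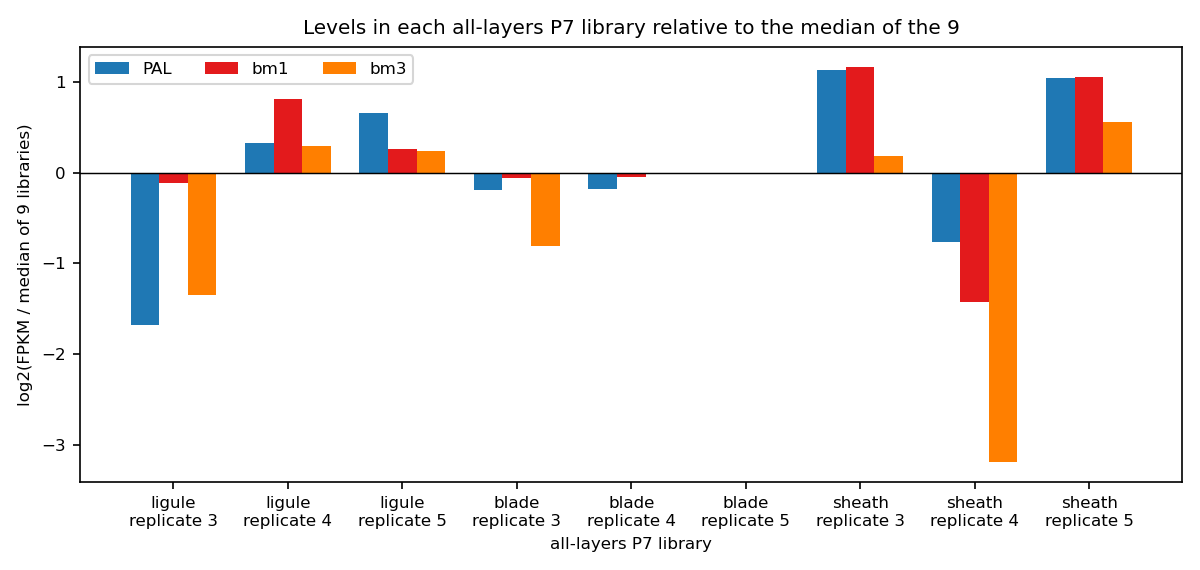
Log2 of the FPKM of each gene over its median of the 9 all-layers P7 libraries (bars, with libraries on the x axis). Sheath replicate 4 is low for bm1 (-1.43) and bm3 (-3.19), ligule replicate 3 is low for PAL (-1.68) and bm3 (-1.35), and the 3 blade libraries lie closest to the median for bm1.

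In the rest of the pathway, 1 of 7 monolignol genes rose in all-layers ligule against blade. This was cad1, with 0.944 ± 0.638 CPM in ligule and 0.126 ± 0.0117 CPM in blade (2.86, SE 0.69, adjusted p = 0.03). In either comparison with sheath 0 of 7 were called. Of all genes tested 2.74% rose and 2.01% fell in ligule against blade. The shares were 1.42% and 1.37% in ligule against sheath, and 0.504% and 1.07% in blade against sheath. Of 4 flavonoid genes tested, CHI was lower in ligule than in blade (-3.18, SE 0.37, adjusted p = 0.00027) and than in sheath (-2.72, SE 0.37, adjusted p = 0.0011). The anthocyanin gene A1 was lower in ligule than in blade (-4.97, SE 1.11, adjusted p = 0.024), and BZ1, an anthocyanin glucosyltransferase gene, was higher (3.74, SE 0.64, adjusted p = 0.004). CHI was low in the ligule of both layers, at 0.164 ± 0.285 CPM in the L1 and 1.58 ± 0.846 CPM in all layers (-2.71, SE 0.75, adjusted p = 0.017). Of 10 secondary wall genes, 0 were called in all layers, in each of the 3 region comparisons.

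The comparison of lg1-R with wild-type siblings asks which genes act downstream of LG1, a transcription factor needed to form the ligule. PAL and bm1 were higher in every library labelled lg1-R than in any wild-type library, but neither passed the threshold. The share of all genes whose libraries separate in this way was not counted, so the separation is not set against a background. PAL averaged 180 ± 25.6 CPM in lg1-R and 88.2 ± 21 CPM in wild type, a log2 fold change of 1.03 (SE 0.21, unadjusted p = 5e-04, adjusted p = 0.19). Only 0.00471% of genes passed here, 1 of 21249, and 1401 had an unadjusted p under 0.05. DESeq2 gave PAL an adjusted p of 0.0025 and edgeR without the filter on low counts 0.00093, whereas limma on log2(FPKM + 1) gave 0.41. The call for PAL thus depends on the tool and on the filter.

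bm1 averaged 31.3 ± 10.5 CPM in lg1-R and 18.7 ± 2.62 CPM in wild type (0.75, SE 0.24, unadjusted p = 0.01, adjusted p = 0.51). Its highest library, lg1-R replicate 3, had 43.3 CPM, against 27.2 and 23.4 CPM in the other mutant libraries. bm3 differed by 0.62 (SE 0.50, adjusted p = 0.88), with overlap. Of 6 monolignol genes tested 0 were called, and the list's median was 0.73, against -0.01 for all genes. 4CL was at 16.2 ± 2.46 CPM in lg1-R and 9.54 ± 2.92 CPM in wild type (0.77, SE 0.25, adjusted p = 0.5). CCR was at 4.49 ± 1.71 CPM in lg1-R and 3.05 ± 0.149 CPM in wild type (0.58, SE 0.31, adjusted p = 0.83). Both separated the genotypes narrowly in CPM but overlapped in FPKM. There 4CL was at 14.4 to 23.4 in lg1-R against 8.07 to 15.7, and CCR at 3.67 to 8.55 against 3.65 to 4.2. CCOAOMT2 overlapped in CPM as well, at 8.65 to 17.6 in lg1-R and 6.79 to 10.5 in wild type. 4CL, CCR and CCOAOMT2 were named after their values were seen. The epidermis markers did not separate the genotypes, at 684 to 786 CPM in lg1-R and 672 to 849 CPM in wild type.

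The mean of the 3 all-layers P7 regions was also set against P6 wild type. The pieces differ in place and size as well as in stage, so stage and piece cannot be told apart. bm1 averaged 87.2 ± 43.2 CPM over the 9 P7 libraries and 18.7 ± 2.62 CPM over the 3 P6 libraries. All 9 were above all 3, and the log2 fold change was 2.19 (SE 0.44, adjusted p = 0.0031), where 28.7% of 22737 genes passed. PAL averaged 251 ± 133 CPM at P7 and 88.2 ± 21 CPM at P6, with overlap (1.46, SE 0.46, adjusted p = 0.03). That call was lost without any 1 of the 3 P6 libraries, with adjusted p = 0.079 to 0.13. bm3 averaged 1.81 ± 0.882 CPM at P7 and 0.635 ± 0.147 CPM at P6 (1.48, SE 0.59, adjusted p = 0.071), and it passed without ligule replicate 3 (adjusted p = 0.043) or sheath replicate 4 (0.0077).

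Of the 7 monolignol genes tested between the stages, 3 rose and 0 fell. These were bm1, PAL and CCR, the last at 10.2 ± 4.41 CPM at P7 and 3.05 ± 0.149 CPM at P6 (1.71, SE 0.40, adjusted p = 0.0058). The list's median was 1.48, against 0.01 for all genes, of which 13.8% rose and 15% fell. Of 10 secondary wall genes 2 rose, a share near that background, CesA12 (1.56, SE 0.45, adjusted p = 0.019) and cesa10 (GRMZM2G445905, 0.83, SE 0.21, adjusted p = 0.008). Of 4 flavonoid genes 1 fell, also near the background, A1 (-2.71, SE 0.62, adjusted p = 0.0054).

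Markers of cell types moved between the stages too. The 3 vascular and inner markers summed to 323 to 440 CPM at P7 and 248 to 301 CPM at P6, without overlap, and 1 of 2 tested rose, rld1 (GRMZM2G109987, 0.73, adjusted p = 0.0032). sut1, at 0.525 ± 1.08 CPM at P7 and 0.0695 ± 0.12 CPM at P6, was not tested. The 5 epidermis markers summed to 415 to 693 CPM at P7 and 672 to 849 CPM at P6, and 2 of 4 tested fell, ocl3 and ocl4 (-0.66 and adjusted p = 0.01 for both), with a median of -0.52. The part of these markers in the higher bm1, PAL and CCR was not tested.

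Across libraries the 3 genes paired unevenly. Over all 24 libraries the Pearson coefficient of log2(CPM + 1) was 0.92 between bm1 and bm3, 0.47 between bm3 and PAL and 0.31 between bm1 and PAL. Over the 9 all-layers P7 libraries it was 0.88 between bm1 and bm3, 0.79 between bm3 and PAL and 0.73 between bm1 and PAL. These points share groups and libraries, so the values only describe these data. The first set is drawn apart by the L1 libraries at 0, and without sheath replicate 4 the coefficient of bm1 and bm3 in all layers was 0.72.

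Of 1217 named genes with an average log2 CPM of at least 3, those whose levels over the 24 libraries were most like bm1 were PER1 (GRMZM2G104394, r = 0.981), gst11 (GRMZM2G119499, 0.976) and gst13 (GRMZM2G126781, 0.968). Those most like bm3 were gst14 (GRMZM2G175134, 0.943), 4CL (0.935) and bm1 itself (0.916). Likeness was weaker for PAL. Those most like PAL were bHLH84 (GRMZM2G159456, 0.783), GAPC2 (GRMZM2G180625, 0.749) and Ann7 (GRMZM2G064993, 0.693).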

How the data were processed

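The authors deposited expected counts (estimated counts per gene) and, per the file header, FPKM (fragments scaled to gene length in kilobases and to 1e6 mapped fragments), each library in its own column. TopHat2 2.0.10 and Cuffdiff 2.1.1 are named in the submitters' processing notes with no roles. The genome build is not given in the sources used here, and neither are strandedness and gene annotation, so no coordinates are printed. Of the values in a library 0.274% to 0.601% were not whole, and expected counts were rounded for the tests. No pair of replicates differed by counting error alone (chi-square per degree of freedom 11.6 to 142). Totals of 3818649 to 52731783 counts put the floor of 3 counts at 0.0491 to 0.805 CPM in a library.

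CPM were computed from these counts with TMM factors over 24 libraries. Levels of different genes were compared as FPKM. Tests used edgeR 4.0.16 in R 4.3.3 (quasi-likelihood, robust, TMM, filterByExpr with smallest count 10 and smallest total 15), fitted on all genes of the 9 all-layers P7, 9 L1, 18 P7, 6 P6, or 12 all-layers P7 and P6 wild-type libraries, and p-values were adjusted by Benjamini and Hochberg's method, with 0.05 as the threshold. An SE is the size of the log2 fold change over the square root of F. Folds against a group at 0 are bounds against 3 counts over the group, and intervals are exact 95% counting intervals that cover counting error only. On simulated counts with a log2 change of 2, 73.1% of changed genes were recovered for ligule against blade in all layers, 44.6% in the L1, 94.9% for lg1-R, 47.4% for L1 against all layers in blade and 87.4% for P7 against P6.

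Names came from the reference table, in which 18259 identifiers matched 1 locus and 519 several, and 2568 had a name other than a code. The rule for named genes took all 3 members, lg1, up to 2 called genes with the smallest p from each list and comparison, and the 3 named genes most correlated with each member. Other genes are said to be named after their values were seen, or complete a count of 5 or fewer. Members and lists were chosen with earlier results of these data known. Each fit was repeated with DESeq2 1.42.0, with RLE size factors, without the filter on low counts, and with limma 3.58.1. For limma the values were log2(FPKM + 1) or log2(FPKM + 0.1), kept where at least 3 libraries reached 1 FPKM, or log2(FPKM + 1) unfiltered. Same-numbered all-layers ligule and blade libraries had deviations that correlated at 0.478, 0.434 and 0.21, a pairing seen in the data and not stated in the labels. A replicate block was fitted where groups share numbers, and libraries were left out singly and in sets. 1 other gene of the planned set is not reported here. Promoters, gene sequences and proteins were not analysed here. matplotlib 3.10.9 under Python 3.11.15 drew the figures.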

Additional observations from a re-analysis of the deposited data

Results flagged for a closer look

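The ligule to blade difference of bm1 was not the same in the adaxial L1 and in all layers, by a test of the change itself (edgeR, adjusted p = 0.035, 1.85% of genes past the threshold). In the L1 bm1 had 0 counts in the 3 ligule libraries, against 73, 1 and 27 counts in the 3 blade libraries. In all layers it averaged 84 ± 33 CPM in ligule and 69.9 ± 1.4 CPM in blade (SD, n = 3 each), with overlap. The call was lost with limma on log2(FPKM + 1) (adjusted p = 0.64), on log2(FPKM + 0.1) (0.19) and on log2(FPKM + 1) with no filter (0.78). It was also lost without ligule replicate 1 (0.09) or 3 (0.15) of the L1, blade replicate 1 (0.094) or 3 (0.08) of the L1, ligule replicate 4 (0.069) or 5 (0.057) of all layers, or blade replicate 3 (0.091), 4 (0.075) or 5 (0.075) of all layers. Over the 18 libraries left out in turn the adjusted p ran from 0.0062 to 0.15.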

How the results depend on the processing

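The 3 genes gave 34 results with a test and 701 alternatives to them, of which 646 stayed on the same side of the threshold, 34 lost a call and 21 gained one. No called value changed sign, and 41 values changed sign where neither value passed. The lower bm1 in the L1 of each region, the lower bm3 in the L1 of ligule and sheath, the lower PAL in L1 ligule than in L1 sheath and the higher bm1 at P7 than at P6 kept their calls in every alternative computed. The causes of the changes were not tested.

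For PAL, L1 ligule against blade was lost with limma on log2(FPKM + 1) (-0.98, adjusted p = 0.071), on log2(FPKM + 0.1) (-1.01, 0.074), on log2(FPKM + 1) with no filter (-0.98, 0.12) and without ligule replicate 1 and blade replicate 2 together (-0.79, 0.26). L1 blade against sheath passed with DESeq2 (-1.18, 0.0049), no filter (-1.19, 0.00063) and limma on log2(FPKM + 1) (-1.29, 0.042). PAL in lg1-R passed with DESeq2 (1.04, 0.0025) and no filter (1.03, 0.00093). L1 against all layers in ligule was lost with limma and no filter (-1.69, 0.063). P7 against P6 was lost with limma on log2(FPKM + 1) (1.22, 0.055), log2(FPKM + 0.1) (1.23, 0.059) and with no filter (1.22, 0.14). The change of the PAL difference between layers passed without the filter for ligule to blade (-1.22, 0.048) and ligule to sheath (-1.64, 0.0015).

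For bm1, the change of the ligule to blade difference was lost with limma (-1.24 on log2(FPKM + 1) with adjusted p = 0.64, or 0.78 with no filter, and -3.25 on log2(FPKM + 0.1) with 0.19). That of blade to sheath passed with DESeq2 (7.14, 0.005), no filter (8.88, 3.2e-12) and without the 3 libraries that lay apart in an earlier analysis, sheath replicate 4 of all layers and ligule replicate 1 and blade replicate 2 of the L1 (9.87, 0.0013). Those sizes are not bounds, since L1 sheath had 0 counts. P7 against P6 passed for bm3 with DESeq2 (1.5, 0.027) and no filter (1.46, 0.014). Without ligule replicate 3 and sheath replicate 4 of all layers, left out together after seeing the data, all-layers blade against sheath passed for bm1 (-1.09, 0.021) and PAL (-1.15, 0.013).

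The number of genes called moved by over 1.5 times in several settings. DESeq2 called 1782 for ligule against blade, 1062 for ligule against sheath and 677 for blade against sheath in all layers (edgeR 1054, 619 and 350). In the L1 it called 1957, 2046 and 878 (edgeR 1216, 1158 and 367), and for the changes between layers 830, 741 and 232 (edgeR 414, 337 and 35). Without the filter the counts were 1984, 1214 and 827 in all layers, 1886, 1872 and 906 in the L1, and 974, 871 and 362 for the changes between layers. For lg1-R, where edgeR called 1, DESeq2 called 148 and edgeR with no filter 482. There limma on log2(FPKM + 1) called 0, with 1102 genes at an unadjusted p under 0.05, or 0 with no filter, with 1608. In all-layers blade against sheath limma with no filter called 153. For the change of blade to sheath between layers limma on log2(FPKM + 0.1) called 9, and leaving out the 3 libraries that lay apart gave 71. Without ligule replicate 3 and sheath replicate 4, all-layers ligule against blade had 1655 calls and blade against sheath 569.

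With single libraries left out, the log2 fold changes of members whose call changed ran from -1.47 to -0.93 for PAL in L1 ligule against blade, -1.41 to -0.99 in L1 blade against sheath, -2.18 to -1.39 for PAL between layers in ligule, 1.34 to 1.66 for PAL and 1.34 to 1.69 for bm3 between P7 and P6, and -8.23 to -4.16 for bm3 between layers in blade. The changes of bm1 between layers ran from -9 to -8 for ligule to blade and 8.33 to 9.38 for blade to sheath. Counts of genes ran from 598 to 1600, 374 to 578 and 113 to 355 for the 3 all-layers region comparisons, 706 to 1224, 640 to 1322 and 201 to 397 in the L1, 0 to 58 for lg1-R, 1113 to 2441 for L1 against all layers in blade, 241 to 491, 188 to 411 and 8 to 49 for the changes between layers, and 2795 to 7531 between P7 and P6. Where lg1-R had 0 calls in edgeR, 915 to 1184 genes had an unadjusted p under 0.05.

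In all layers the deviations of same-numbered ligule and blade libraries correlated at 0.21 to 0.478. Those of differently numbered ones correlated at -0.455 to 0.103. Same-numbered libraries of these 2 groups thus deviated together, but the labels state no pairing, and deviations from a mean of 3 libraries depend on each other. Sheath replicate 5 went with its number (0.277 and 0.23), but replicates 3 and 4 did not (-0.536 to -0.304). Sheath replicate 4 instead went with blade and ligule replicate 3 (0.496 and 0.529). Sheath replicate 3 went with blade and ligule replicate 4 (0.416 and 0.572). Same-numbered libraries correlated at -0.0681 to 0.0529 in the L1 and -0.186 to 0.045 in P6, so no pairing by number was seen there. For ligule against blade, all layers, the fit of these 6 libraries alone called 2879 genes with the replicate block and 1339 without it. With the replicate block in the full fits, PAL in L1 blade against sheath passed (-1.17, adjusted p = 0.049), and 185 genes were called in all-layers blade against sheath and 4 in lg1-R. No other call on the 3 genes changed under the block. In all layers, however, the block set sheath replicates 3 and 4 with libraries that deviated the other way. There it does not describe how the sheath libraries pair. No paired analysis was possible between layers or stages because the groups share too few replicate numbers in the labels or come from different pieces. Depth limits bm3 most, at 4 counts in the L1.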
